A study of Mus musculus with 16 samples.

Results

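Mitochondrial ribosomal protein genes were taken as every probe whose platform gene symbol begins with Mrpl or Mrps followed by a number, and as measurable those detected (detection p-value under 0.05) on every array of at least 1 diet group. The rule found 110 probes of 76 genes among the 25697 probes of the array. Of these, 96 probes of 70 genes entered the tests, among 11143 probes tested in all. Livers came from old male C57BL/6 mice, bought at 104 weeks of age, kept for a month on the purified AIN-93G diet and then assigned at random to diets for 17 weeks. EOW mice (n = 5) received AIN-93G with 1% metformin every other week, 2WM mice (n = 4) received the same metformin diet for 2 consecutive weeks of each month, and SD mice (n = 4) stayed on AIN-93G alone. Metformin is a biguanide used against type 2 diabetes, known among other actions to inhibit complex I of the respiratory chain. The mice were not fasted at euthanasia, and the study's text places both metformin groups in an on-metformin phase at that week.

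The mitochondrial ribosome translates the few messages encoded in mitochondrial DNA, all of which code for membrane subunits of the respiratory chain and ATP synthase. Its ribosomal RNAs come from mitochondrial DNA, but every one of its proteins is encoded in the nucleus, made on cytosolic ribosomes and imported. The large subunit, built of Mrpl proteins, carries the peptidyl transferase centre and the exit tunnel. The small subunit, built of Mrps proteins, holds the messenger RNA and the decoding site. Some of the proteins have bacterial counterparts and others are found only in mitochondrial ribosomes. The liver, rich in mitochondria, depends on this machinery for oxidative phosphorylation. None of the 13 proteins encoded in mitochondrial DNA, the products of this ribosome, was on the array.

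Signal was measured on 16 one-colour Illumina bead arrays, with 1 mouse of each group hybridised to 2 arrays that were averaged. Arrays detected 11457 to 12953 probes each and 91 to 97 of the 110 member probes. The array medians of signal were 127 to 165 in EOW, 162 to 178 in 2WM and 145 to 185 in SD, and levels here are log2 signals scaled within each array, given as log2 units above or below the array's own mean. EOW mouse 4 stood apart from the rest. It correlated at 0.841 to 0.888 with the other mice over the tested probes, against 0.950 to 0.991 among those 12. Marker sums are of signal before scaling. Its summed signal of 5 T and NK cell markers was 25490, against 1122 to 2466 in the other mice of all groups. The 6 tested hepatocyte markers summed to 68810 to 138100 in EOW, 113600 to 128100 in 2WM and 115100 to 124300 in SD livers, with EOW mouse 4 the lowest. Its array also had the lowest median signal (127). As scaled levels, their median deviation from the SD mean was -0.14 in EOW mouse 4. It was 0.08 to 0.62 in the other EOW mice and -0.18 to 0.28 in SD mice. In whole liver RNA, fewer cells of a type and less RNA per cell cannot be told apart.

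Of the 96 measurable probes, 58 belonged to 43 genes named for the large subunit (Mrpl) and 38 to 27 genes named for the small subunit (Mrps). On all 16 arrays 87 of them were detected, and 9 passed through only 1 or 2 of the groups (Mrpl18, Mrpl20, Mrpl49 with 2 probes, Mrpl50, Mrpl51 with 2 probes, Mrpl57 and Mrps27). The 14 remaining probes were not tested. Of these, 12 were detected on no array, and they left Mrpl19, Mrpl21, Mrpl32, Mrpl45, Mrps14 and Mrps36 without a measurable probe. For the tested members the median residual SD between mice of a group was 0.159 log2 units, against 0.204 over all tested probes. The 2 arrays of a mouse differed by a median of 0.102 (EOW 1), 0.107 (2WM 1) and 0.136 (SD 1) log2 units over the members.

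More mitochondrial ribosomal protein probes had lower than higher values in EOW livers relative to SD livers, by small amounts and with no member past the test. Of the 96 probes, 62 had a negative and 34 a positive log2 fold change, with a median of -0.07 against -0.03 over all tested probes, of which 44.8% were positive. No member passed an adjusted p of 0.05 in the limma fit with Benjamini-Hochberg adjustment, and the lowest adjusted p was 0.199. Over all tested probes 0% passed. At an unadjusted p under 0.05, 11 members were lower and 1 was higher in EOW (11.5% and 1.04% of the members). The background was 8.25% lower and 5.59% higher over all tested probes. Without SD mouse 2 or without SD mouse 3 the counts were 5 lower and 0 higher, at backgrounds of 5.73% and 4.75% lower, which leaves the members' share near the background. Without EOW mouse 4, 54 probes were negative and 42 positive, with a median of -0.05 against -0.04 over all tested probes. The groups did not overlap for 3 members, all lower in EOW, against a background of 2.4% lower and 1.75% higher. A probe that passed the detection filter only through SD, where it was high, was chosen for a lower value in EOW, and 1 of these 3 (of Mrpl49) was such a probe. Over the 87 probes detected on all 16 arrays, 8 were lower and 1 higher at an unadjusted p under 0.05, at a background of 8.61% and 6.02% among all probes so detected. Of the 87, 2 did not overlap (2.3%), both lower in EOW, at a background of 2.21% lower and 1.71% higher. The 95% interval of the log2 fold change lay within 0.5 on either side of 0, a fold of 1.41, for 80 of the 96 probes. Only Mrpl20 and Mrpl50 had an estimate beyond that bound, and both rested on EOW mouse 4 (described below with Mrps27).

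In 2WM livers the members' values were split about evenly around those of SD livers, except when arrays were set to a common median. The median log2 fold change from SD was 0.01, against -0.03 over all tested probes, with 49 of 96 members positive. With array medians in place of Z scores it was -0.15, against -0.12 over all tested probes. At an unadjusted p under 0.05, 0 members were then higher and 16 lower, at a background of 0.835% and 11.4%. No member passed an adjusted p of 0.05 (limma, Benjamini-Hochberg; lowest 0.678), nor did any other tested probe (0%). At an unadjusted p under 0.05, 2 members were higher and 3 lower, at a background of 2.23% and 3.71%. Groups did not overlap for 1 member higher and 3 lower in 2WM, at a background of 2.16% and 3.66%, the same Mrpl49 probe among the 3. Without EOW mouse 4, which enters through the shared spread, 6 were higher and 3 lower at an unadjusted p under 0.05. The background of that fit also rose, to 3.16% higher and 5.6% lower. For 81 probes the interval lay within 0.5 of 0.

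Set directly against 2WM livers, EOW livers had lower values for 70 of the 96 probes and higher for 26, with a median of -0.09, against 0.00 over all tested probes, of which 50.7% were positive. The fit called no member (limma, Benjamini-Hochberg; lowest adjusted p 0.269) and no other probe (0%). At an unadjusted p under 0.05, 6 members were higher and 7 lower in EOW, at a background of 5.26% and 5.4%. These counts were 3 and 4 without 2WM mouse 3, at a background of 2.77% higher and 3.5% lower. They were 4 and 4 without 2WM mouse 1 (background 3.61% and 4.32%) and 4 and 5 without 2WM mouse 4 (3.32% and 4.03%). Without EOW mouse 3 they were 4 and 11, at a background of 5.15% and 5.84%. With array medians in place of Z scores they were 6 and 0, at a background of 6.14% and 3.28%. Values did not overlap for 2 members higher and 4 lower in EOW, at a background of 1.99% and 1.97%. The interval lay within 0.5 of 0 for 79 probes. Without EOW mouse 4 the median was -0.06, with 65 probes negative. The 3 comparisons share groups, so their counts are not independent of each other.

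**Figure D1:**
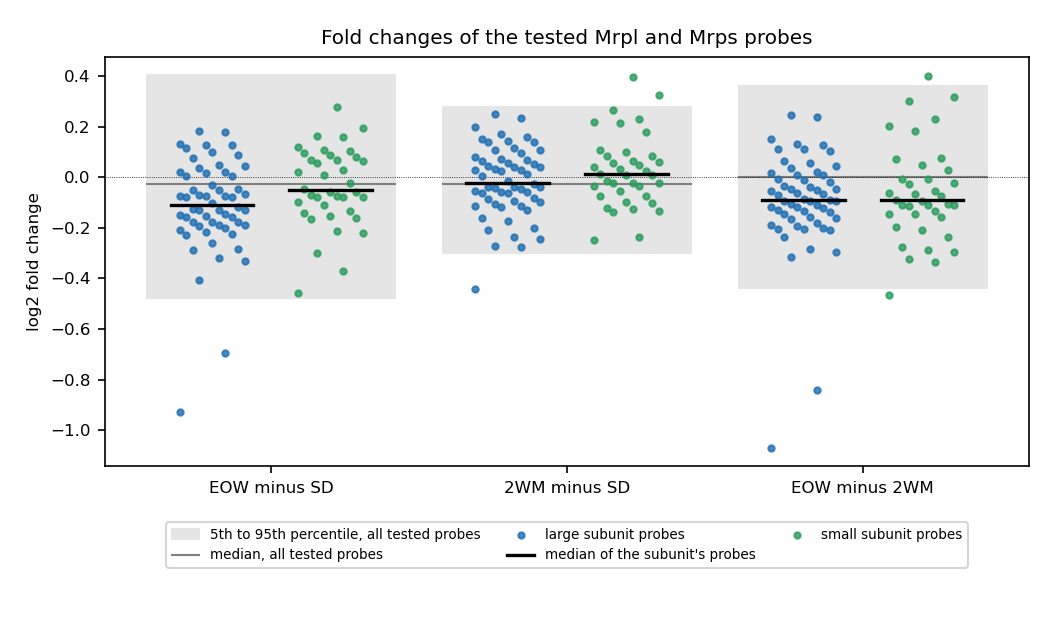
log2 fold change (vertical axis) of each tested large subunit probe (blue, 58) and small subunit probe (green, 38) in the 3 comparisons, with each subunit's median as a black line, the median of all 11143 tested probes as a grey line and their 5th to 95th percentile as a grey band. Most members sit within the band, and the 2 points far below it in the comparisons with EOW on top are Mrpl50 and Mrpl20.

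The subunits were taken by gene name and compared by the median of their probes. In EOW minus SD the median was -0.11 for the large subunit, with 17 of 58 probes positive, and -0.05 for the small subunit, with 17 of 38 positive. In 2WM minus SD the medians were -0.02 for the large and 0.01 for the small subunit. In EOW minus 2WM they were -0.09 for both. Mrps18a and Mrps30, with 1 probe each, are placed in the large subunit by the published structures. With both counted there, the medians were -0.11 over 60 large and -0.05 over 36 small subunit probes in EOW minus SD, and -0.01 and 0.01 in 2WM minus SD. Since genes are not replicates, the difference between subunits was read in each mouse. The large minus small difference of the medians, each taken as deviation from the SD mean, was 0.04, -0.07, -0.05, -0.10 and -0.11 in EOW mice, 0.01, -0.07, -0.05 and -0.02 in 2WM mice and -0.05, 0.00, -0.01 and 0.02 in SD mice. The groups overlapped in this difference, and its SD between mice of a group was 0.0442.

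Read mouse by mouse, the values in EOW were uneven. The median deviation of the 96 members from the SD mean was -0.08, -0.03, 0.02, -0.14 and -0.06 in EOW mice 1 to 5, -0.02, -0.02, -0.01 and 0.04 in 2WM mice, and -0.03, 0.01, 0.00 and 0.01 in SD mice. SD values lie close to 0 by construction, because deviations are taken from the SD mean. Over all tested probes the same median was -0.07, -0.0006, -0.005, 0.007 and -0.07 in EOW mice 1 to 5. It ran from -0.05 to 0.001 in 2WM and from -0.04 to 0.02 in SD mice. In EOW mice 1 and 5 the members therefore lay near the median of all tested probes. Counted against the mean of all 13 mice, 36, 48, 56, 33 and 37 of the 96 members were above it in EOW mice. The number was 50, 49, 59 and 64 for 2WM mice and 52, 57, 54 and 62 for SD mice. EOW mice 1, 2, 4 and 5 were below every 2WM and SD mouse in this count, whereas EOW mouse 3 was in the midst of them. No such count was taken over all tested probes. Cytosolic ribosomal protein genes, measured for contrast over 53 genes, had median deviations of 0.65, 0.12, 0.18, 0.53 and 0.49 in EOW mice. The deviations were 0.26, 0.09, 0.03 and 0.12 for 2WM mice and 0.01, -0.09, -0.18 and 0.27 for SD mice.

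**Figure D2:**
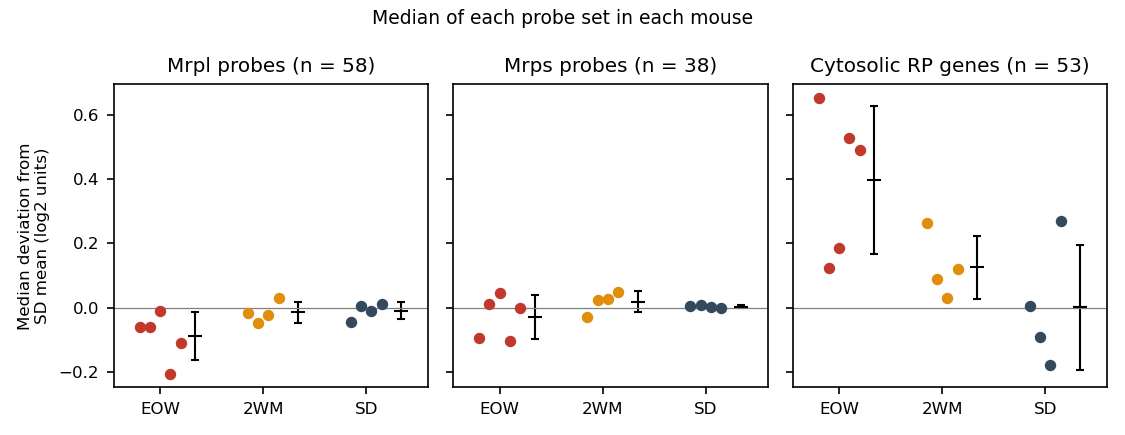
Median deviation from the SD mean in log2 units (vertical axis) for the 58 Mrpl probes, the 38 Mrps probes and 53 cytosolic ribosomal protein (RP) genes. Each point is 1 mouse, and the bar gives the group's mean ± SD (n = 5 EOW, 4 2WM, 4 SD). The large subunit median of EOW mouse 4 is the lowest at -0.21, and all EOW mice lie above 0 for the cytosolic genes.

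Mrps7, a protein of the small subunit's head that binds the small ribosomal RNA, had the smallest p in EOW minus SD. On probe ILMN_2981821 its level was 1.25, 1.49, 1.68, 1.23 and 1.23 in EOW mice, 1.38, 1.56, 1.69 and 1.71 in 2WM mice and 1.71, 1.93, 2.08 and 1.61 in SD mice. Of the 5 EOW mice 4 lay below every SD mouse, and EOW mouse 3 lay above the lowest SD value. The log2 fold change was -0.46 ± 0.13 (SE) for EOW minus SD (limma adjusted p = 0.199, exact two-sided permutation p = 0.0238) and -0.25 ± 0.13 for 2WM minus SD. The other Mrps7 probe, ILMN_2981818, did not show it. Its levels were 2.99 to 3.51 in EOW (median 3.34), 3.25 to 3.69 in 2WM and 3.34 to 3.41 in SD mice, with a log2 fold change of -0.07 ± 0.11 for EOW minus SD. The platform annotation assigns both probes to the same transcript.

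Mrpl49, a large subunit protein found only in mitochondrial ribosomes, was measured by 4 probes, 3 of them among the 8 smallest p in this comparison. On ILMN_2634295 the level was 2.04, 1.98, 2.14, 1.73 and 1.495 in EOW mice, 1.91, 2.04, 1.90 and 2.19 in 2WM mice and 2.41, 2.28, 2.25 and 2.19 in SD mice. All EOW mice were under the lowest SD mouse, and the highest 2WM mouse and the lowest SD mouse both read 2.19. The log2 fold change was -0.40 ± 0.13 for EOW minus SD (limma adjusted p = 0.223, exact permutation p = 0.0159) and -0.27 ± 0.13 for 2WM minus SD. The other 3 probes had -0.32, -0.26 and -0.13 for EOW minus SD and -0.17, -0.28 and -0.06 for 2WM minus SD. The 2 of these 4 probes that were detected on all arrays, ILMN_2634295 and ILMN_2701363, were negative in both comparisons with SD. Probe ILMN_2628672 was missed only in EOW mouse 4. The dim probe ILMN_2929031 was detected on 4 of 6 EOW, 2 of 5 2WM and 5 of 5 SD arrays. It entered only through SD, so its values, -0.71 to -0.42 in EOW, -0.76 to -0.46 in 2WM and -0.42 to -0.13 in SD mice, are given as a description and lend no support to the other probes. The smallest p that 4 against 4 mice can give is 0.0286, and 0.00794 for 5 against 4.

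Mrps21, a protein of the small subunit's platform with a bacterial counterpart, separated EOW from both other groups. Its level was 2.63, 2.59, 2.66, 2.12 and 2.61 in EOW mice, 2.78, 2.67, 2.99 and 2.83 in 2WM mice and 2.68, 2.83, 3.08 and 2.98 in SD mice. Every EOW mouse was below every 2WM and SD mouse, the closest pair being 2.66 in EOW and 2.67 in 2WM. The log2 fold change was -0.37 ± 0.13 for EOW minus SD (limma adjusted p = 0.249, exact permutation p = 0.00794) and -0.30 ± 0.13 for EOW minus 2WM (limma adjusted p = 0.436, exact permutation p = 0.0159). EOW mouse 4 was the lowest of all.

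Among the remaining members with the 8 smallest p in EOW minus SD, the direction was again lower in EOW. Mrps18a, a protein named for the small subunit that the published structures place in the large one, had -0.30 ± 0.11 (limma adjusted p = 0.272). Mrpl37, found only in mitochondrial ribosomes, had -0.29 ± 0.11 (limma adjusted p = 0.296). Mrps11, of the platform, gave -0.22 ± 0.09 on one probe (limma adjusted p = 0.308) and 0.06 ± 0.09 on the other, so its 2 probes disagreed in sign. Mrps26, a small subunit protein found only in mitochondrial ribosomes, was the single member with an unadjusted p under 0.05 and a positive value, 0.28 ± 0.11 on ILMN_3005828.

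Start-site sequences of the members that led in each direction are shown because they carry the short letters that nuclear genes for mitochondrial proteins often share. Each runs 5′ to 3′ on the gene's strand over 130 bases, from 100 before to 30 after the RefSeq start (GRCm38.p6), with matches in capitals to GCGCANGCG (the core of the NRF1 site), CCGGAAG (the ETS site that GABP binds) or AAGATGGC (a YY1 site), read on both strands.
Mrps7 (chr11:115604040-115604169, plus strand): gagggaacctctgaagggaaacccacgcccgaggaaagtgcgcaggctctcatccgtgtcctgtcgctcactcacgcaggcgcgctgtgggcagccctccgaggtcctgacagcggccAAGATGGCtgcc
Mrpl49 (chr19:6057726-6057855, minus strand): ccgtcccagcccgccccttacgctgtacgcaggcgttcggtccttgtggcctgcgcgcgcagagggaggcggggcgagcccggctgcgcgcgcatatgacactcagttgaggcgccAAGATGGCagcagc
Mrps21 (chr3:95871485-95871614, minus strand): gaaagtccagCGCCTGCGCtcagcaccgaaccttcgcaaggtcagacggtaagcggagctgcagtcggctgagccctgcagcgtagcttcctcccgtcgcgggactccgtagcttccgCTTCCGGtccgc
Mrps26 (chr2:130563657-130563786, plus strand): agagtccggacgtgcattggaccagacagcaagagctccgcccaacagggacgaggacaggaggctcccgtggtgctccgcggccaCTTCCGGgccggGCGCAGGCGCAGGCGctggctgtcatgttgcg

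In Mrps7 and Mrpl49, the pair with the smallest p, the YY1 letters begin 19 and 17 bases after the start, with the first base of the transcript counted as 1. Mrps21 has the NRF1 letters on the other strand 90 bases before its start and the ETS letters on the other strand at base 19. Mrps26 has the ETS letters on the other strand 14 bases before the start and 2 copies of the NRF1 letters that overlap each other, from 2 bases before the start and from base 5. A match is a description of the letters and not a site shown to be bound.

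RefSeq windows of 300 bases (250 before to 50 after a start) were found for 67 of the 76 member genes. The ETS letters stood in 26 of them (38.8%), against 12.9% of 17491 protein-coding genes with a window and 9.93% of all genes with one. The NRF1 letters stood in 15 (22.4%), against 9.63% and 7.03%, and the YY1 letters in 12 (17.9%), against 3.57% and 3.19%. At least 1 of the 3 was present in 43 of the 67. TATAAA stood in 5 (7.46%), against 14.8% and 15.7%. The windows held a median of 21 CG dinucleotides, against 15 in protein-coding genes. Another gene started on the opposite strand within 1000 bases upstream for 25 of the 67 (37.3%), against 13.2% of protein-coding genes. Such neighbours included Fau for Mrpl49 at 192 bases, a cytosolic ribosomal protein gene, Twnk for Mrpl43 at 116 bases, the mitochondrial DNA helicase, Sars2 for Mrps12 at 147 bases, a mitochondrial seryl-tRNA synthetase, and the member pair Mrpl46 and Mrps11 at 42 bases.

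Fold changes were also described by the letters present. In EOW minus SD the median log2 fold change was -0.09 over the 16 tested probes of genes with the NRF1 letters and -0.08 over the 71 without, and -0.07 over the 35 with the ETS letters and -0.08 over the 52 without. It was -0.16 over the 17 probes with the YY1 letters, 2 of them positive, and -0.07 over the 70 without. Mrpl49 supplies 4 of those 17 and Mrps7 another 2, so these medians are described without a test.

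In 2WM minus SD the named members split in both directions. Mrps18b, 1 of 3 related S18 proteins of the mitochondrial ribosome, had 1.44, 1.66, 1.63 and 1.26 in 2WM mice, against 1.31, 1.12, 1.09 and 0.88 in SD mice. Only the lowest 2WM mouse fell within the SD range, and the log2 fold change was 0.40 ± 0.13 (limma adjusted p = 0.678, exact permutation p = 0.0571). Its second probe gave 0.27 ± 0.15. Mrps18c, its relative, had 0.23 ± 0.10 (limma adjusted p = 0.831).

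Mrpl34, a small RNA-binding protein of the large subunit with a bacterial counterpart, had the lowest value in 2WM minus SD. Its level was 2.02, 1.92, 2.21 and 2.01 in 2WM mice, against 2.44, 2.57, 2.66 and 2.27 in SD mice. The groups did not overlap, and the log2 fold change was -0.44 ± 0.15 (limma adjusted p = 0.713, exact permutation p = 0.0286). EOW mice ran from 1.71 to 2.44 with a fold change of -0.33 ± 0.15 from SD. Mrpl28 was also below SD without overlap in 2WM, by a log2 fold change of -0.13 ± 0.10. Mrpl46, of the central protuberance, was above SD without overlap, by 0.10 ± 0.10, and with array medians in place of Z scores its value changed sign to -0.08.

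The lower values among the remaining 2WM minus SD leaders were Mrpl53 at -0.20 ± 0.09 and Mrpl58 at -0.21 ± 0.10, both particular to mitochondria. Mrpl58 is a peptidyl-tRNA hydrolase that became a part of the large subunit. Mrpl16, which reaches towards the peptidyl transferase centre, had 0.25 ± 0.12.

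Of the 8 member probes with the smallest p in EOW minus 2WM, 6 were named for the small subunit, as were 38 of the 96 tested probes. Of the 6, Mrps26 supplied 2, and Mrps18a is placed in the large subunit by the published structures. Mrps26 had 1.00, 0.85, 0.78, 1.09 and 0.86 on ILMN_3005827 in EOW mice, against 0.56, 0.77, 0.49 and 0.24 in 2WM mice. No values overlapped, though the closest pair, 0.78 in EOW and 0.77 in 2WM, nearly met, and the log2 fold change was 0.40 ± 0.11 (limma adjusted p = 0.269, exact permutation p = 0.00794). The second probe gave 0.30 ± 0.11 (limma adjusted p = 0.38). SD mice had 0.54 to 0.88 on the first probe and overlapped both groups.

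Mrps9, a protein of the small subunit's head with a bacterial counterpart, had 2.13, 1.97, 2.00, 2.14 and 2.19 in EOW mice, against 1.74, 1.93, 1.65 and 1.75 in 2WM mice. Every EOW mouse exceeded every 2WM mouse, with a log2 fold change of 0.32 ± 0.10 (limma adjusted p = 0.284, exact permutation p = 0.00794). Mrps35, particular to mitochondria, had 0.23 ± 0.09, and Mrpl23, at the rim of the exit tunnel, 0.25 ± 0.10.

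Mrps18c went the other way, at 2.93, 2.83, 2.91, 3.02 and 3.02 in EOW mice, against 3.15, 3.30, 3.25 and 3.23 in 2WM mice. No EOW mouse reached the lowest 2WM mouse, with a log2 fold change of -0.29 ± 0.10 (limma adjusted p = 0.34, exact permutation p = 0.00794), while SD mice spanned 2.73 to 3.20 and overlapped both. Mrps18a had -0.33 ± 0.11 and Mrpl16 -0.29 ± 0.11 for EOW minus 2WM. Mrpl30 (-0.21 ± 0.09) and 1 of the Mrpl1 probes (-0.14 ± 0.07) were lower in EOW than in 2WM without overlap.

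**Figure D3:**
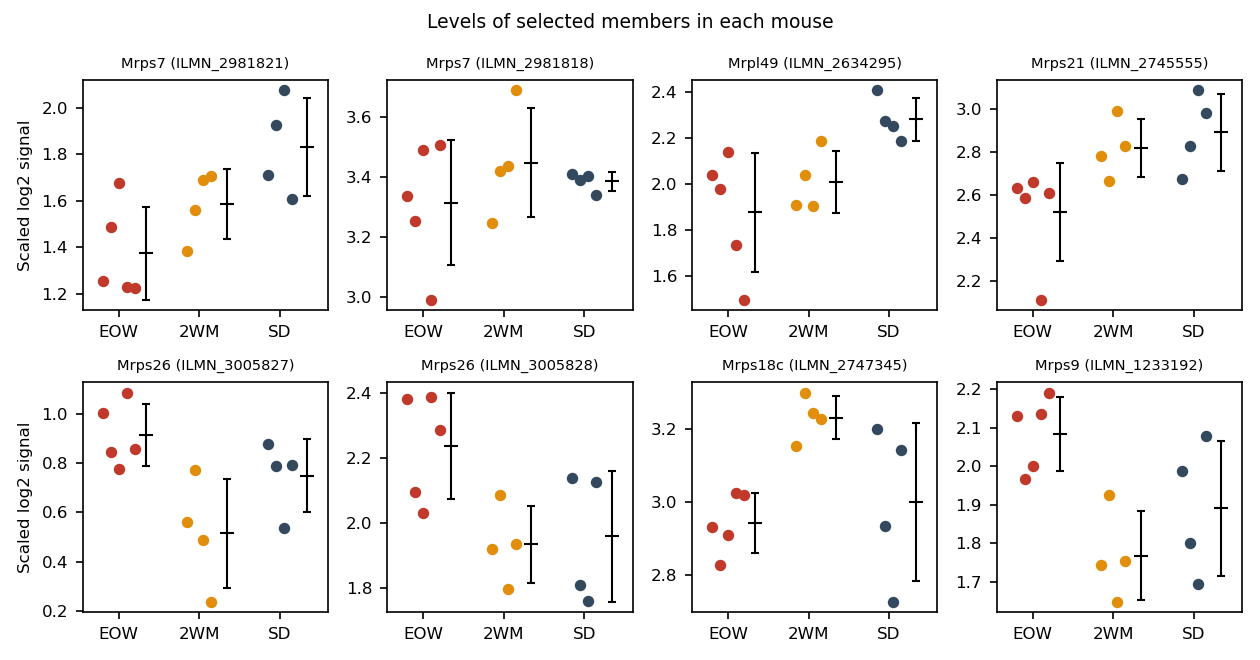
Scaled log2 signal (vertical axis, log2 units relative to the array mean, own scale in each panel) of 8 probes in each mouse, with the group's mean ± SD at the right of its points (n = 5 EOW, 4 2WM, 4 SD). The 2 Mrps7 probes differ in pattern, the 2 Mrps26 probes agree, and Mrps21 and Mrps18c lie lower in EOW than in 2WM without overlap.

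Grouped by where the published structures place them, no region held a called member. All 4 probes of the stalk and the centre that activates GTPases (Mrpl10, Mrpl11 and Mrpl12) were negative in EOW minus SD, from -0.18 to -0.08, with 3 of 4 positive in 2WM minus SD. The 7 probes at the exit tunnel (Mrpl4, Mrpl17, Mrpl22, Mrpl23, Mrpl24 and Mrpl47) had a median of 0.04, with 5 positive. The 8 of the central protuberance had -0.01, the 5 of the peptidyl transferase centre -0.045, the 4 of the decoding site and messenger channel -0.09, the 5 of the platform -0.15 and the 5 of the head -0.07. In EOW minus 2WM the platform, with Mrps11, Mrps18c and Mrps21, had the lowest regional median, -0.20, with 1 of 5 probes positive. The stalk was close to it, at -0.19 with 1 of 4 positive. Members with a bacterial counterpart (55 probes) and those particular to mitochondria (41) had medians of -0.08 and -0.07 in EOW minus SD.

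Where a gene had several probes, they gave a check within the array. For the 21 genes with more than 1 tested probe (47 probes), all probes of the gene shared a sign in 14 genes for EOW minus SD, 15 for 2WM minus SD and 16 for EOW minus 2WM. The widest disagreement was that of Mrps11 in EOW minus 2WM, at -0.20 and 0.20.

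Mrpl20, Mrpl50 and Mrps27 were far below the rest in EOW mouse 4. Mrpl20, whose counterpart in bacteria joins the large subunit early in its assembly, had a level of -1.54 in that mouse, against 2.24 to 3.09 in the other 12. Mrpl50, a large subunit protein particular to mitochondria, had -1.496, against 2.94 to 3.48. Mrps27, an RNA-binding protein of the small subunit, had -1.38, against 0.12 to 0.71. None of the 3 was detected on that mouse's array, while each was detected on every array of the other mice, as was also true of a dim Mrpl49 probe. Over all 11143 tested probes, 436 were lost in this way in EOW mouse 4, 182 in EOW mouse 5 and 1 to 59 in each of the others. The 4 lost of the 96 member probes in EOW mouse 4 were thus a share similar to that of all tested probes.

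These 3 genes therefore carry large errors in EOW. The log2 fold changes for EOW minus SD were -0.69 ± 0.72 for Mrpl20, -0.93 ± 0.80 for Mrpl50 and -0.14 ± 0.33 for Mrps27, and without EOW mouse 4 they were 0.15, 0.02 and 0.23. Mrpl20 and Mrpl50 lie on chromosome 4 and Mrps27 on chromosome 13. The T and NK cell markers of that mouse were a median of 4.41 log2 units above the SD mean. Their part in the low values was not tested.

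**Figure D4:**
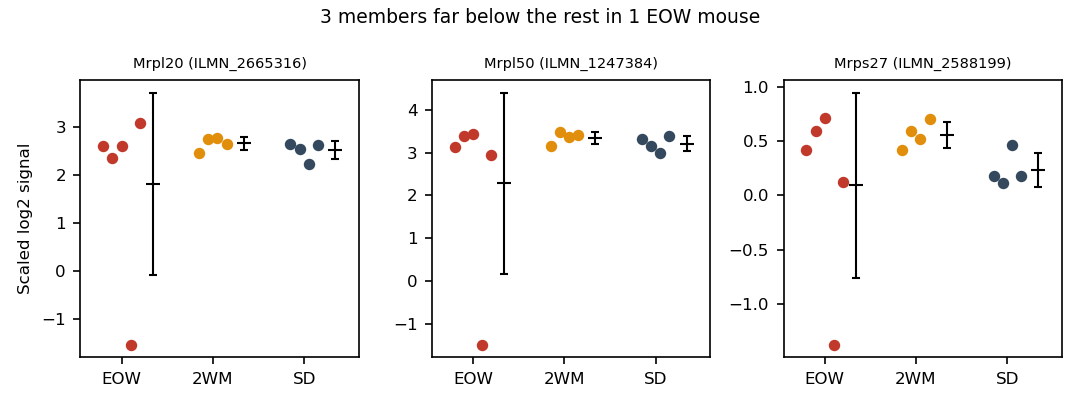
Scaled log2 signal (vertical axis) of Mrpl20, Mrpl50 and Mrps27 in each mouse, with mean ± SD per group (n = 5 EOW, 4 2WM, 4 SD). EOW mouse 4 lies at -1.54, -1.496 and -1.38, and the other mice lie at 2.24 to 3.09, 2.94 to 3.48 and 0.12 to 0.71.

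Genes that work with the mitochondrial ribosome gave no called gene in any comparison. Of 16 assembly and ribosomal RNA modification genes tested, 8 were positive in EOW minus SD (median 0.01), and 1 had an unadjusted p under 0.05. This was Tfb1m, which methylates the small ribosomal RNA, at 0.35 ± 0.13 (limma adjusted p = 0.278). Its level was 0.56, 0.35, 0.53, 0.45 and 1.08 in EOW mice, against 0.31, 0.32, 0.05 and 0.31 in SD mice, without overlap. Of 11 mitochondrial translation factors and messenger regulators, 10 were negative in EOW minus SD (median -0.10), none with an unadjusted p under 0.05. With 1 mouse left out, 7 (without SD mouse 3) to 11 (without SD mouse 2) were negative. Their median deviation from the SD mean overlapped between groups, at -0.22 to 0.07 in EOW and -0.12 to 0.22 in SD mice. Mtif3, an initiation factor, had -0.55 ± 0.27 and rested largely on EOW mouse 4 (level -0.84, against 0.43 to 0.88 in the other EOW mice and 0.82 to 1.08 in SD mice). Without that mouse it was -0.25. Slirp, which stabilises mitochondrial messages, had -0.38 in EOW minus 2WM (limma adjusted p = 0.284). The 11 tested mitochondrial tRNA synthetases had a median of 0.05 and the 10 genes of mitochondrial DNA transcription and maintenance -0.01.

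Among regulators of nuclear genes for mitochondria, 6 genes were tested. Nrf1 had 0.13 ± 0.12 in EOW minus SD and 0.30 in EOW minus 2WM (limma adjusted p = 0.397), and without EOW mouse 4 it had 0.02 and 0.20. Gabpa, the GABP subunit that binds the ETS letters, had -0.01 and 0.02. Ppargc1a, the coactivator of mitochondrial biogenesis, had 1.67, 0.74, 0.89, -0.28 and 1.37 in EOW mice, against 0.19, -0.03, 0.21 and 0.64 in SD mice, with a log2 fold change of 0.62 ± 0.31 (limma adjusted p = 0.391). The 4 higher EOW mice exceeded all SD mice, and EOW mouse 4 was below them. Without that mouse the log2 fold change was 0.91. Esrra, a nuclear receptor that acts with it, had 0.22 ± 0.18.

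Other nuclear genes for mitochondria gave other medians. The 68 tested respiratory chain subunits had medians of 0.00 in EOW minus SD (35 positive), 0.11 in 2WM minus SD (49 positive) and -0.09 in EOW minus 2WM (17 positive). Without EOW mouse 4 they were 0.07 in EOW minus SD (46 positive) and -0.01 in EOW minus 2WM (31 positive). Without EOW mouse 5 they moved the other way, to -0.08 (23 positive) and -0.17 (9 positive). At an unadjusted p under 0.05, 2 were higher and 1 lower in EOW minus SD, of which Cox7a2l had 0.35 ± 0.14 and Ndufa3 -0.26 ± 0.11. The 11 chaperones and proteases had a median of -0.03 in EOW minus SD, with Phb2 (0.26), Dnaja3 (0.29) and Hspa9 (0.23) at an unadjusted p under 0.05. The proteins of the mitochondrial ribosome that carry other names (Dap3, Ptcd3 and Chchd1) had 0.18, -0.14 and 0.12.

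Most cytosolic ribosomal protein genes had higher values in EOW livers than in SD livers. The groups overlapped in the median of each mouse, where SD mouse 4 (0.27) was above EOW mice 2 and 3 (0.12 and 0.18). Of 53 genes tested, 48 were positive in EOW minus SD, with a median of 0.39, and 34 had an unadjusted p under 0.05, all higher, at the background of 5.59%. None passed the adjusted p (lowest 0.153). Rps9 had 0.66 ± 0.15, at 5.56, 4.93, 5.05, 5.46 and 5.33 in EOW mice, against 4.64, 4.46, 4.46 and 4.88 in SD mice, without overlap. Rpl3 had 0.68 ± 0.17 and Rps16 0.57 ± 0.14. In 2WM minus SD the median was 0.13, with 41 of 53 positive. The difference between cytosolic and mitochondrial lists was not tested.

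**Figure D5:**
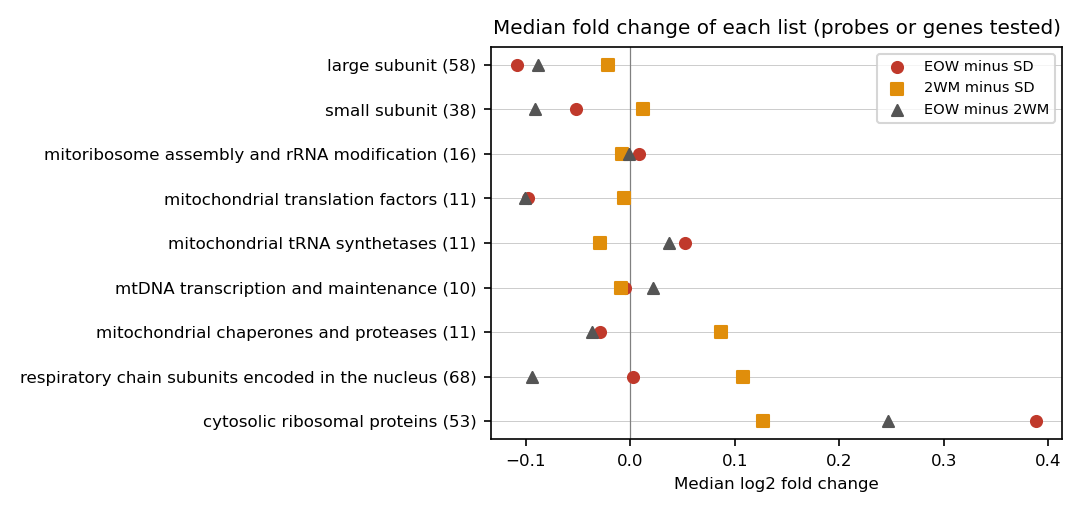
Median log2 fold change (horizontal axis) of each list, with the number of tested probes (subunits) or genes (other lists) in brackets, for EOW minus SD (circles), 2WM minus SD (squares) and EOW minus 2WM (triangles). The mitochondrial ribosome's subunits lie at -0.11 and -0.05 and the cytosolic ribosomal proteins at 0.39 in EOW minus SD.

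Markers of hepatocytes and of other liver cells both had medians above 0 in EOW minus SD. For T and NK cells and for Kupffer cells this rested on EOW mouse 4. All 6 hepatocyte markers were positive, with medians of 0.25 in EOW minus SD and 0.24 in 2WM minus SD, and 0.34 in EOW minus SD without EOW mouse 4. Of the 5 tested stellate cell and fibroblast markers 4 were positive in EOW minus SD, with a median of 0.25, 3 of them with an unadjusted p under 0.05, Dcn the highest at 0.65 ± 0.21 (limma adjusted p = 0.227). Without EOW mouse 4 the median was 0.21, 1 had an unadjusted p under 0.05, and Dcn was at 0.48. Their summed signal before scaling ran from 9943 to 18470 in EOW livers, from 11390 to 15480 in 2WM and 8958 to 16100 in SD livers. Of the 7 endothelial markers 4 were positive and 3 negative, from -0.18 for Clec4g to 1.09 ± 0.39 for Lyve1, the only one with an unadjusted p under 0.05. Their median was 0.20, or 0.05 without EOW mouse 4. Before scaling they summed to 6169 to 9451 in EOW, 8721 to 12690 in 2WM and 8388 to 11200 in SD livers. As scaled levels, their median deviation from the SD mean was -0.07 to 0.34 in EOW mice. It was -0.05 to 0.19 in 2WM and -0.09 to 0.11 in SD mice. The 7 Kupffer cell and macrophage markers had a median of 0.14 in EOW minus SD, with 5 positive. Without EOW mouse 4 it was -0.0009, and without EOW mouse 5 it was 0.39. Before scaling they summed to 7965 to 19950 in EOW and 12120 to 41460 in SD livers. The 5 T and NK cell markers had a median of 0.97, or 0.05 without EOW mouse 4. The part of these cells in the values of the members was not tested.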

How the data were processed

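Liver RNA (Trizol, Illumina TotalPrep amplification) was hybridised by the authors to Illumina bead arrays, read with GenomeStudio 2011.1 per the submitters' notes. The authors deposited probe signal as intensity, not normalized, with a detection p-value for each probe, and a table of Z scores. The deposited score matched Z scores of log2 signal (r = 1, largest difference 1e-04), computed here within each array and multiplied by the mean SD of the arrays (1.462) to give log2 units. Probes were named from the platform annotation (23978 with a symbol, 1719 without) and all 110 members matched RefSeq. Repeat arrays of a mouse were averaged. limma 3.58.1 in R 4.3.3 (array weights with statmod 1.5.0) fitted the 3 groups over 11143 probes with 10 residual degrees of freedom and Benjamini-Hochberg adjustment. Arrays give no counts, so the number of mice limits precision. Exact permutation tests were two-sided differences in means. Lists were read by each gene's brightest tested probe. Named in full were, in each comparison, the 8 member probes with the smallest p and members whose groups did not overlap, with up to 3 genes per list. Mrpl20, Mrpl50 and Mrps27, and list genes beyond those, were chosen after their values were seen. The members and lists were chosen with earlier results of these data known. Replicate numbers were read as separate mice. They do not pair mice across groups (correlations of deviations -0.381 to 0.328). The study's text gives 4 mice per group for the arrays, whereas the deposited EOW arrays are labelled as 5 replicates. In all, 29 other settings were run. The count over probes detected on all arrays, and the leaving out of mice for the other lists, were chosen after seeing the data.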

Additional observations from a re-analysis of the deposited data

Results flagged for a closer look

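In single groups some mice lay apart from the others of their group, by a gap that was a large share of the group's range. Some of these gaps were small in log2 units, as for Mrpl46 in SD mouse 3 (2.406, others 2.37 to 2.38). Over the 96 tested members and 2 summaries in 3 groups, 294 items in all, 19 such values were found, and chance gives about 1 in 20. EOW mouse 4 held 8 of them, all low. These were Mrpl12 (3.22, others 3.73 to 3.87), Mrpl20 (-1.545, others 2.36 to 3.09), Mrpl50 (-1.496, others 2.94 to 3.44), Mrpl51 on ILMN_2653020 (-0.9558, others -0.58 to -0.44), Mrps21 (2.115, others 2.59 to 2.66), Mrps27 (-1.377, others 0.13 to 0.71) and Mrps31 on 2 probes (2.096, others 3.00 to 3.28, and 2.824, others 3.39 to 3.61). In the other EOW mice, Mrpl15 on ILMN_1239507 was high in mouse 3 (0.0643, others -0.43 to -0.33) and Mrpl43 low in mouse 5 (2.339, others 2.78 to 2.86).

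In 2WM, low values were those of Mrpl16 in mouse 4 (2.076, others 2.38 to 2.43), Mrpl40 in mouse 3 (1.844, others 1.91 to 1.92), Mrpl53 in mouse 2 (3.526, others 3.68 to 3.70) and Mrps31 on ILMN_2829295 in mouse 1 (3.43, others 3.47 to 3.48). In SD, Mrps18a was low in mouse 1 (1.846, others 2.08 to 2.10). High in SD were Mrpl14 (3.636, others 3.44 to 3.45) and Mrps34 (3.873, others 3.65 to 3.68) in mouse 4 and Mrpl35 (0.09355, others -0.17 to -0.14) and Mrpl46 (2.406, others 2.37 to 2.38) in mouse 3.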

How the results depend on the processing

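No member passed an adjusted p of 0.05 under any alternative of the fit, the scaling, the filter or the mice included. Under the false discovery rate and z-ratio thresholds of the study's methods (adjusted p under 0.30 with a z-ratio above 1.5) applied to the limma fit, 1 member, Mrps7 at a z-ratio of -1.55, passed in EOW minus SD. Over all 11143 tested probes, 442 passed there. No member was among the 5 that passed in 2WM minus SD or the 190 in EOW minus 2WM. The study's own selection also asked for a z-test and an ANOVA p under 0.05, so these numbers are not its calls. With array medians in place of Z scores, the members' median was -0.18 in EOW minus SD and -0.15 in 2WM minus SD, where all tested probes had -0.09 and -0.12, and unadjusted counts were 0 higher and 23 lower for EOW and 0 higher and 16 lower for 2WM (backgrounds 2.59% and 14.5%, 0.835% and 11.4%). For EOW minus 2WM that scaling gave 6 higher and 0 lower (backgrounds 6.14% and 3.28%), against 6 and 7 with Z scores. Leaving out 1 mouse at a time gave large minus small differences of -0.1279 (without SD mouse 1) to -0.0348 (without EOW mouse 5) in EOW minus SD, -0.1093 without EOW mouse 1, and medians of -0.0857 to -0.0524 in EOW minus SD, -0.0145 to 0.0160 in 2WM minus SD and -0.1076 to -0.0582 in EOW minus 2WM. With the replicate block the medians were -0.0784, 0.0057 and -0.0769, and the block, which pairs no mice here, changed no call. Replicate 5 exists only in EOW, so the block takes up EOW mouse 5, and these medians equal those without that mouse. The fold change changed sign for Mrpl46 in 2WM minus SD with median centring (-0.0751), for Mrps27 in EOW minus SD with array weights (0.28) and, without EOW mouse 4, in EOW minus SD for Mrpl20 (0.1485, from -1.01 when another mouse was left out), Mrpl50 (0.01545, from -1.219) and Mrps27 (0.2273, from -0.2953), and in EOW minus 2WM for Mrpl20 (0.002983, from -1.156). The cause was not tested. Over the 87 members detected on all arrays, chosen after seeing the data, the medians were -0.07, 0.00 and -0.07 in EOW minus SD, 2WM minus SD and EOW minus 2WM. The other 897 values of named members kept their direction and side of the threshold.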
